A study of Mus musculus with 18 samples.

Results

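Markers used to stage B cells were followed as 10 transcripts, namely *Cd93*, *Cd24a*, *Fcer2a*, *Cr2*, *Cd38*, *Vpreb3*, *Cd1d1*, *Cd9*, *Rag1* and *Rag2*. They were chosen by name as markers of transitional and mature B cells, and are 10 of the 51912 genes in the table. All 10 were found in it by the GENCODE annotation of their identifiers. RNA was sequenced from flow-sorted B cells of C57BL/6 mice that lack *Sh3gl1* in the germline (Sh3gl1-/-) and of their wild-type (WT) littermates. *Sh3gl1* encodes endophilin A2, a membrane-bending protein of endocytosis. Each genotype was measured as untreated transitional cells, untreated follicular cells, and follicular cells treated with CD40L for 14 h, with 3 libraries in each of the 6 groups. The paper names 3 mice per genotype for RNA sequencing, so libraries of different states may come from the same mice. The deletion is present in all cells of the animal, and the age of the mice was not given in the sources used here.

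Newly formed B cells leave the bone marrow as transitional cells and mature in the spleen into follicular or marginal zone cells. CD93, a C-type lectin-like receptor recognised by the AA4.1 antibody, and CD24, a small glycosylphosphatidylinositol-anchored sialoglycoprotein, are high on immature cells and decline with maturation. CD23, the low-affinity IgE receptor encoded by *Fcer2a*, and CD21/CD35, the complement receptors encoded by *Cr2*, are acquired as cells mature. RAG1 and RAG2 together cut DNA for V(D)J recombination, and VpreB3 is a chaperone-like partner of immunoglobulin light chains in early B cells. CD40L, the ligand that helper T cells show to B cells, activates follicular cells through CD40.

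The study's methods separate spleen B cells by some of these same proteins. Mature cells are B220+CD93- and are divided by CD23 and CD21/35, while transitional cells are B220+CD93+ and are divided by CD23 and IgM. Gates for the RNA samples are not described separately, and the methods' account of RNA isolation names follicular cells, while the labels also list transitional cells. Differences of *Cd93*, *Fcer2a* and *Cr2* between transitional and follicular cells therefore concern proteins of these gates, and are descriptions of the sort. CD38 was in the antibody panel only for germinal centre cells. CD24, CD1d, CD9, VpreB3 and the RAG proteins were not in the panel.

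Promoter sequence from RefSeq (GRCm38.p6) was available for 7 of the 10 genes and was read for the 250 bases before each start. The windows of 4 genes are printed because their transcripts changed with CD40L culture, 3 downward and 1 upward. They lie at chr10:75948050-75948299 (plus strand) for *Vpreb3*, chr5:43868559-43868808 (plus strand) for *Cd38*, chr1:195176720-195176969 (minus strand) for *Cr2* and chr8:3690862-3691111 (minus strand) for *Fcer2a*. Capitals mark matches to the motifs named after the sequences.
Vpreb3: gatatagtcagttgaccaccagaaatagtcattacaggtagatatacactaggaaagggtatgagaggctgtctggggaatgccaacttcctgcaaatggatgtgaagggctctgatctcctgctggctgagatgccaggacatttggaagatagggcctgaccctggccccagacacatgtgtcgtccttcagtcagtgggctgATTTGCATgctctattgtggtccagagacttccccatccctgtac
Cd38: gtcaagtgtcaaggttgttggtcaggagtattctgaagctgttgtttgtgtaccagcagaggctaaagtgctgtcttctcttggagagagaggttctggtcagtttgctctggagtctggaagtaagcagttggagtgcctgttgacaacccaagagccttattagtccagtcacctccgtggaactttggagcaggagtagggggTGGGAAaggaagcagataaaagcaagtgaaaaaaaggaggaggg
Cr2: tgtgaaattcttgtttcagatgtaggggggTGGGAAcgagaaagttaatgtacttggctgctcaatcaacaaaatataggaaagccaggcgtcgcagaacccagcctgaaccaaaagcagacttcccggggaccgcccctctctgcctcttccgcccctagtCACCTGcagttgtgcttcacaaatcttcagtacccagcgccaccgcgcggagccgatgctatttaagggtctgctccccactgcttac
Fcer2a: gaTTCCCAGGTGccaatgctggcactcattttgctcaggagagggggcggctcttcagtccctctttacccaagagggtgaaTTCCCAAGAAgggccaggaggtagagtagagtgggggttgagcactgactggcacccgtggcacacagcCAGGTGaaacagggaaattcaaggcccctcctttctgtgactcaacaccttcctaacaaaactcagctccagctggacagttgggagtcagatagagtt

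A set of 6 motifs was searched on both strands, and matches are letters in these windows, not measured binding. The octamer ATTTGCAT, the site of OCT factors in immunoglobulin promoters, was found 45 bases before the *Vpreb3* start and in 1.6% of the 32851 windows of all genes. The 7 genes held it only there. The *Fcer2a* window printed holds TTC and GAA with 4 bases between them, the spacing that STAT6 prefers (5.85% of all windows), and this match overlaps a match to the RBPJ core. That core, TGGGAA, occurred in windows of *Cd38*, *Cd9*, *Cr2*, *Fcer2a* and *Rag1* and in 21.6% of all windows. The E-box CAGGTG occurred in windows of *Cd9*, *Cr2*, *Fcer2a* and *Rag1* and in 17.2% of all windows, and the first E-box of the *Fcer2a* window also overlaps a match to the RBPJ core. The EBF1 palindrome (TCCC and GGGA, 2 bases apart, in 0.779% of all windows) and the NF-kB letters (GGGA and TTTCC, 1 base apart, in 0.356%) were found in none of the 9 windows of these genes. *Fcer2a* has 3 listed starts, and the window at its outermost start (chr8:3694175-3694424) held no match to the 6 motifs. Which start was used was not measured.

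Libraries held between 12404665 and 18366011 counts. *Sh3gl1* had 29.7 to 57.9 CPM (counts divided by the scaled library total) in the 9 WT libraries and 0.0715 to 1.76 CPM in the 9 Sh3gl1-/- libraries, so the genotype labels held in every library. The 9 pan-B-cell genes (such as *Cd79a*, *Ms4a1* and *Pax5*) were detected in every group, with summed levels from 13737.8 to 25766.4 CPM. By edgeR's test, 7 of them were higher and 0 lower in transitional than follicular WT cells, where 25.9% of all genes passed. In Sh3gl1-/- cells 3 were higher and 0 lower, where 10.4% passed. Their median log2 difference was 0.49 in WT and 0.22 in Sh3gl1-/- cells, and its part in the marker differences was not tested. In transitional cells their sums were lower in Sh3gl1-/- libraries (18538.0, 22408.0 and 17578.4 CPM) than in WT libraries (23866.5 to 25766.4 CPM). Of the 9, 0 were higher and 2 lower there (adjusted p under 0.05 by edgeR), where 2.48% of all genes tested were lower. Marker genes of other cells were present too and differed between groups. The 8 macrophage and monocyte genes summed to between 499.9 and 889.8 CPM in transitional libraries and between 118.8 and 294.6 CPM in follicular libraries. The 8 plasma cell genes summed to 3021.9 and 4789.7 CPM in transitional Sh3gl1-/- libraries 1 and 3, against 1285.4 CPM in library 2 and 655.9 to 860.7 CPM in transitional WT cells. Of these 8, only *Jchain* passed between genotypes in transitional cells (1 higher, 0 lower by edgeR), where 3.73% of all genes passed. The median log2 difference of the 8 was 0.35. The 5 red cell genes were all higher in transitional Sh3gl1-/- than WT cells, and summed to 8830.5, 4438.4 and 9505.2 CPM against 2278.6 to 3971.1 CPM. The 9 T-cell genes summed to between 538.2 and 695.7 CPM before culture and between 39.9 and 50.9 CPM after it. In bulk RNA, fewer cells of a type and less RNA per cell cannot be told apart.

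**Figure D1:**
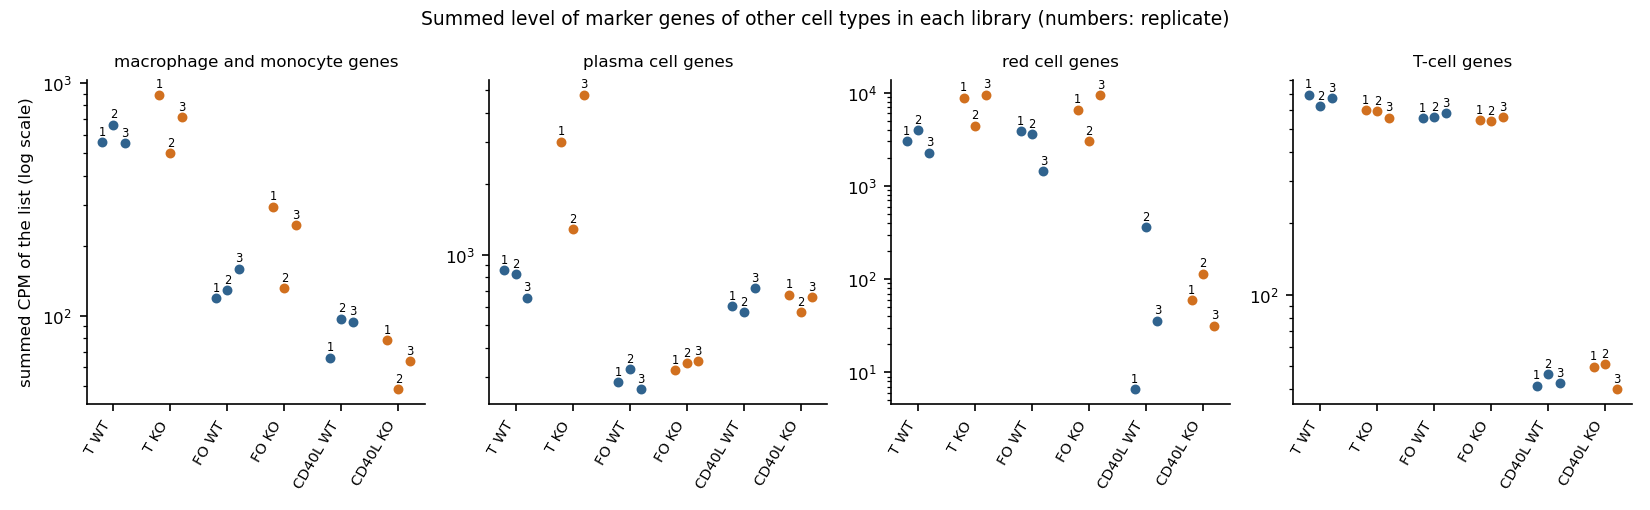
Summed CPM (log axis) of the macrophage and monocyte, plasma cell, red cell and T-cell genes in each of the 18 libraries, numbered by replicate, with T for transitional, FO for follicular and KO for Sh3gl1-/-. Transitional libraries have macrophage sums from 499.9 to 889.8 CPM, above every follicular library, and transitional Sh3gl1-/- libraries 1 and 3 have the highest plasma cell sums.

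Compared per length as TPM (each transcript's share of a library), *Vpreb3* was the highest of the 10 genes in transitional WT cells at 1207.0 ± 74.3 TPM (SD, n = 3). *Fcer2a* followed at 596.7 ± 64.5, *Cd38* at 417.2 ± 81.8 and *Cd24a* at 260.0 ± 33.6 TPM. *Cd24a* and *Cd1d1* (237.8 ± 27.8 TPM) overlapped in their ranges, and *Cr2* lay below them at 209.9 ± 1.63 TPM. *Cd9* had 33.4 ± 4.27 TPM, and *Cd93* only 12.1 ± 1.34 TPM. In follicular WT cells *Fcer2a* led at 878.7 ± 107.0 TPM, ahead of *Vpreb3* at 487.1 ± 69.7 TPM and of *Cd38* and *Cr2*, whose ranges overlapped. After CD40L culture *Fcer2a* stood at 2151.6 ± 452.6 TPM in WT cells, and the next gene, *Cr2*, at 136.8 ± 23.0 TPM. *Rag1* and *Rag2* were the lowest everywhere, at 0.38 ± 0.301 and 0.33 ± 0.18 TPM in transitional WT cells.

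**Figure D2:**
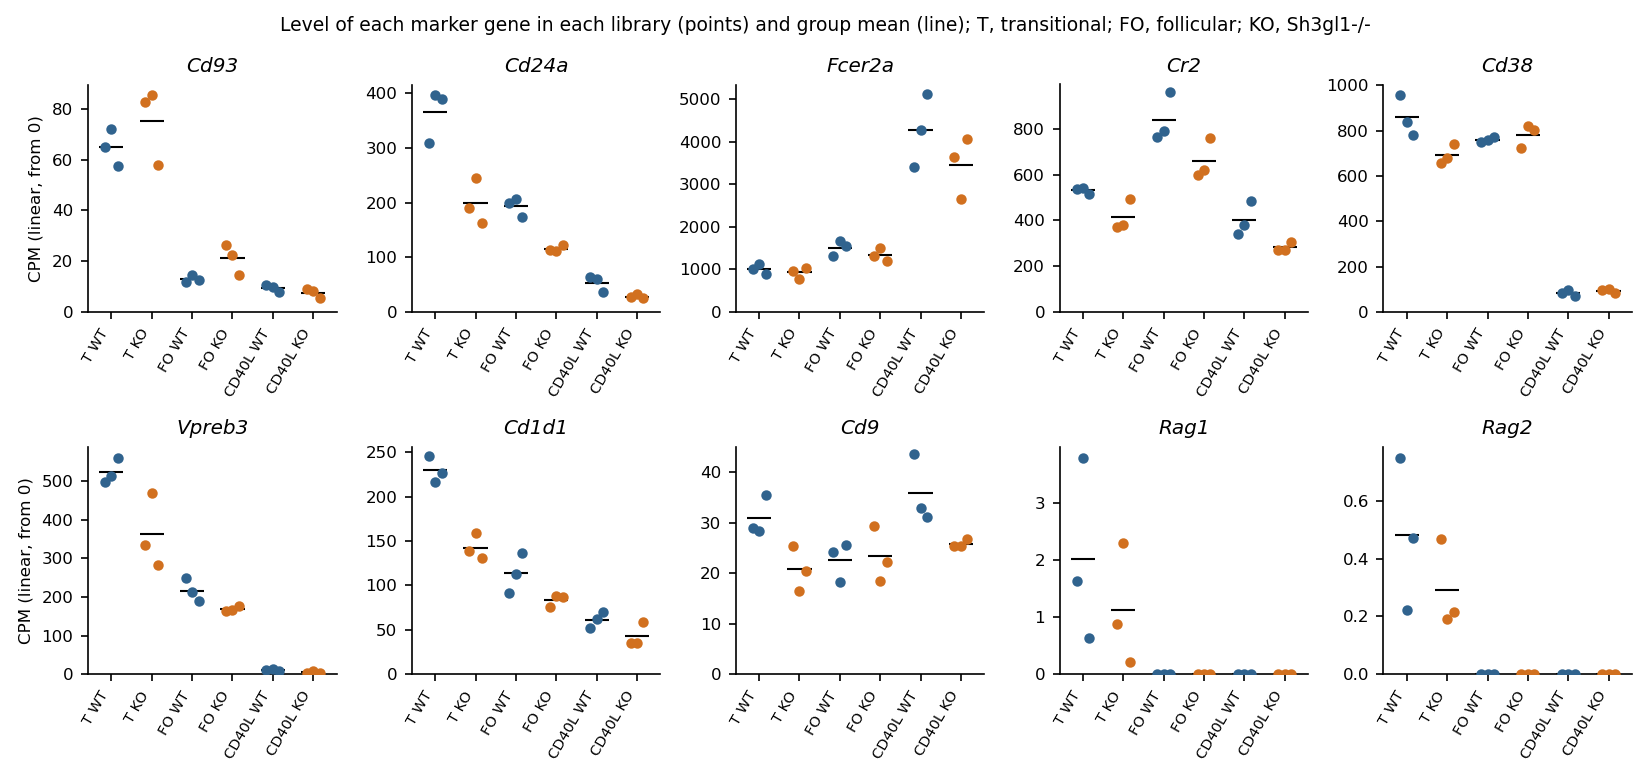
CPM of each of the 10 genes (linear axes from 0) in each library, with points for the 3 libraries of a group and a line at their mean; T, transitional; FO, follicular; KO, Sh3gl1-/-. *Cd93*, *Cd24a*, *Vpreb3* and *Cd1d1* are highest in transitional cells, *Cr2* in follicular cells and *Fcer2a* after CD40L culture, and *Rag1* and *Rag2* are at 0 outside transitional cells.

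The first comparison asked how the markers differed between transitional and follicular cells. The recombinase genes were at 0 in all follicular libraries and could pass the count filter only through transitional cells, so they are left out of these counts. In WT cells 6 of the other 8 genes passed edgeR's quasi-likelihood test (adjusted p under 0.05), 4 higher and 2 lower in transitional cells, where 25.9% of all 14580 genes tested passed. In Sh3gl1-/- cells the same 6 genes passed in the same directions, where 10.4% of all genes passed. The median log2 difference of the 8 genes was 0.68 in WT cells, against -0.03 over all genes tested, and 0.31 in Sh3gl1-/- cells, against 0.00. Among the 6 genes, *Cd93*, *Fcer2a* and *Cr2* encode proteins of the study's gates, so the counts and medians partly describe the sort. *Cd24a*, *Vpreb3* and *Cd1d1*, the other genes that passed, encode proteins that were not in the antibody panel.

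*Cd93* (ENSMUSG00000027435, GRCm38 chromosome 2 from 148436640 to 148443563, minus strand) had 64.9, 72.2 and 57.4 CPM in transitional WT cells and 11.8, 14.4 and 12.4 CPM in follicular WT cells. Sh3gl1-/- cells had 82.8, 85.6 and 57.8 CPM in transitional and 26.3, 22.6 and 14.4 CPM in follicular cells. The groups did not overlap in either genotype. The transitional level was 5.01-fold higher in WT (log2 2.33, SE 0.20, adjusted p = 6e-06 by edgeR) and 3.61-fold higher in Sh3gl1-/- cells (log2 1.85, SE 0.20, adjusted p = 3.9e-05 by edgeR). CD93 is also found on myeloid cells, and all 8 macrophage and monocyte genes were higher in transitional than follicular WT cells, by a median log2 difference of 2.94, and none of the 8 was at 0 counts in either group. Their part in the *Cd93* difference was not tested. The macrophage sums of the 3 transitional Sh3gl1-/- libraries were 889.8, 499.9 and 714.4 CPM, in the order of the *Cd93* values above.

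*Fcer2a* (ENSMUSG00000005540, chromosome 8 from 3681737 to 3694175, minus strand) was lower in transitional cells. It had 1006.0, 1117.3 and 900.0 CPM in transitional and 1321.9, 1659.6 and 1549.6 CPM in follicular WT cells, without overlap. The log2 difference was -0.59 (SE 0.12, adjusted p = 0.0031 by edgeR) in WT and -0.52 (SE 0.12, adjusted p = 0.013) in Sh3gl1-/- cells. The Sh3gl1-/- difference no longer passed without transitional library 2 (-0.40, adjusted p = 0.065) or without follicular library 2 (-0.43, adjusted p = 0.056), both of the knockout, nor with all 18 libraries in 1 fit (-0.53, adjusted p = 0.055). *Cr2* (ENSMUSG00000026616, chromosome 1 from 195136811 to 195176716, minus strand) had 539.2, 541.4 and 516.8 CPM in transitional and 765.1, 791.9 and 959.4 CPM in follicular WT cells. Its log2 difference was -0.66 (SE 0.12, adjusted p = 0.0015 by edgeR) in WT and -0.65 (SE 0.12, adjusted p = 0.0032) in Sh3gl1-/- cells. In WT cells these differences were 1.51-fold for *Fcer2a* and 1.58-fold for *Cr2*, against 5.01-fold for *Cd93*.

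*Vpreb3* (ENSMUSG00000000903, chromosome 10 from 75943057 to 75949657, plus strand) was not part of the antibody panel. It had 497.6, 513.6 and 561.2 CPM in transitional and 248.3, 213.0 and 188.4 CPM in follicular WT cells. Sh3gl1-/- cells had 334.3, 469.7 and 284.0 CPM in transitional and 163.4, 165.1 and 176.4 CPM in follicular cells. All transitional libraries lay above all follicular libraries, and the difference was 2.41-fold in WT (adjusted p = 5.4e-05 by edgeR) and 2.17-fold in Sh3gl1-/- cells (adjusted p = 0.00026). *Cd24a* (ENSMUSG00000047139, chromosome 10 from 43578284 to 43584265, plus strand) had 309.4, 397.5 and 389.2 CPM in transitional and 198.4, 207.0 and 173.3 CPM in follicular WT cells. Its difference was 1.88-fold in WT (adjusted p = 0.00034 by edgeR) and 1.75-fold in Sh3gl1-/- cells (adjusted p = 0.0017).

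*Cd1d1* (ENSMUSG00000028076, chromosome 3 from 86995834 to 86999441, minus strand) encodes CD1d, which presents lipids to natural killer T cells and is known to be high on marginal zone cells. It had 245.8, 216.4 and 226.8 CPM in transitional and 91.1, 113.1 and 136.8 CPM in follicular WT cells. The groups did not overlap, and the transitional level was 2.01-fold higher in WT (adjusted p = 9.6e-05 by edgeR) and 1.72-fold higher in Sh3gl1-/- cells (adjusted p = 0.0013). Its paralog *Cd1d2* shares 489 of the 2565 windows of 50 bases in *Cd1d1* transcripts (19.1%), so reads there could be divided between them. *Cd1d2* itself was at 18.5 ± 2.02 CPM (SD, n = 3) in transitional and 5.97 ± 1.62 CPM (SD, n = 3) in follicular WT cells, well below *Cd1d1*. For the other 9 genes, at most 5.67% of such windows occurred in another gene's transcripts.

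*Cd38* and *Cd9* did not pass the test in either genotype. *Cd38* (ENSMUSG00000029084, chromosome 5 from 43868553 to 43912375, plus strand), an ectoenzyme that consumes NAD, had 959.5, 836.4 and 781.5 CPM in transitional and 751.9, 758.5 and 771.9 CPM in follicular WT cells. These groups lay close together without overlap (log2 0.17, SE 0.08, adjusted p = 0.15 by edgeR). In Sh3gl1-/- cells the groups overlapped and the log2 difference was -0.16 (SE 0.08, adjusted p = 0.24). *Cd9* (ENSMUSG00000030342, chromosome 6 from 125460266 to 125494791, minus strand), a tetraspanin of marginal zone and B-1 cells, had 28.9, 28.4 and 35.5 CPM in transitional and 24.2, 18.3 and 25.5 CPM in follicular WT cells. Its log2 difference was 0.44 (SE 0.19, adjusted p = 0.11) in WT and -0.16 (SE 0.20, adjusted p = 0.70) in Sh3gl1-/- cells. With same-numbered libraries of one genotype paired, the WT difference of *Cd9* was 0.45 and passed (adjusted p = 0.017 by edgeR).

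The recombinase genes were detected only in transitional libraries. *Rag1* (ENSMUSG00000061311, chromosome 2 from 101638282 to 101649501, minus strand) had 24, 51 and 8 counts in transitional WT and 15, 36 and 3 counts in transitional Sh3gl1-/- cells. *Rag2* (ENSMUSG00000032864, chromosome 2 from 101624718 to 101632529, plus strand) had 11, 3 and 6 counts in WT and 8, 3 and 3 counts in Sh3gl1-/- cells. Both were at 0 counts in all 12 follicular and CD40L-cultured libraries. Against a floor of 3 counts per library, *Rag1* was at least 8.95-fold higher in transitional than follicular WT cells and at least 5.02-fold higher in Sh3gl1-/- cells. Library 2 of each genotype held the most *Rag1*, and without it these bounds were 5.02 in WT and 2.43 in Sh3gl1-/- cells. For *Rag2* these bounds were 2.14 and 1.3, and a two-sided exact permutation test gave p = 0.1 in each genotype, the smallest that 3 mice against 3 allow. The floor covers counting error only, since PCR copies are not independent molecules. The gene *B230118H07Rik* (minus strand) shares 80 exonic bases with *Rag1* on the same strand and 208 with *Rag2* on the opposite strand, and had between 12 and 37 counts in every transitional and follicular library.

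Other stage genes, from fixed lists, were set beside these. Between transitional and follicular cells, 25.9% of all 14580 genes tested passed in WT and 10.4% in Sh3gl1-/- cells, in either direction. Of 7 immature-stage genes tested, 3 rose in transitional WT cells and 0 fell. These were *Il2ra*, the interleukin 2 receptor alpha chain (log2 2.43), the transcription factor *Myb* (2.17) and *Lef1*, a Wnt pathway transcription factor (0.56), while *Sox4*, next in order, did not pass (0.77, adjusted p = 0.16 by edgeR). The 3 that rose had still higher means in CD40L-cultured than in transitional WT cells. These means were 51.1 against 26.6 CPM for *Il2ra*, 63.4 against 34.5 CPM for *Myb* and 112.5 against 55.8 CPM for *Lef1*. Of 12 mature follicular genes, 3 were higher and 6 lower in transitional WT cells. *Itgb7*, an integrin chain for gut homing (-1.25), *Gpr183*, an oxysterol receptor that positions B cells (-1.13), and *Icosl*, a ligand for T-cell ICOS (-0.82), were lower, while *Tnfrsf13c*, the BAFF receptor, was higher (0.82). Of 12 marginal zone genes, 8 were higher and 2 lower in transitional WT cells, among them *Plxnd1* (2.29), the sphingosine 1-phosphate receptor *S1pr3* (1.68), *Myof* (1.66) and *Marcks* (0.83). *Marcks* also had a higher mean in CD40L-cultured than in transitional WT cells (352.8 against 91.2 CPM), while *Plxnd1*, *S1pr3* and *Myof* had lower ones. In Sh3gl1-/- cells the counts were 2 higher and 0 lower of the immature-stage genes, 0 higher and 7 lower of the mature follicular genes, and 4 higher and 0 lower of the marginal zone genes. The difference between the genotypes was tested for each of these genes and none passed.

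Whether the transitional to follicular difference itself differed between genotypes was tested as an interaction in the 12 untreated libraries. None of the 8 genes passed (0 by edgeR and 0 by DESeq2), where 0.0686% of all genes passed by edgeR and 364 of 14580 by DESeq2. At an unadjusted p under 0.05 in edgeR's test there were 2 of the 8, where 13.7% of all genes were. These were *Cd38*, whose difference was -0.33 on the log2 scale (Sh3gl1-/- minus WT) (SE 0.12, adjusted p = 0.23 by edgeR), and *Cd9* (-0.60, SE 0.28, adjusted p = 0.36). For the other 6 genes the difference lay between -0.47 (*Cd93*) and 0.08 (*Fcer2a*). With same-numbered libraries of one genotype paired, 99 genes passed in place of 10, again with 0 of these 8.

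**Figure D3:**
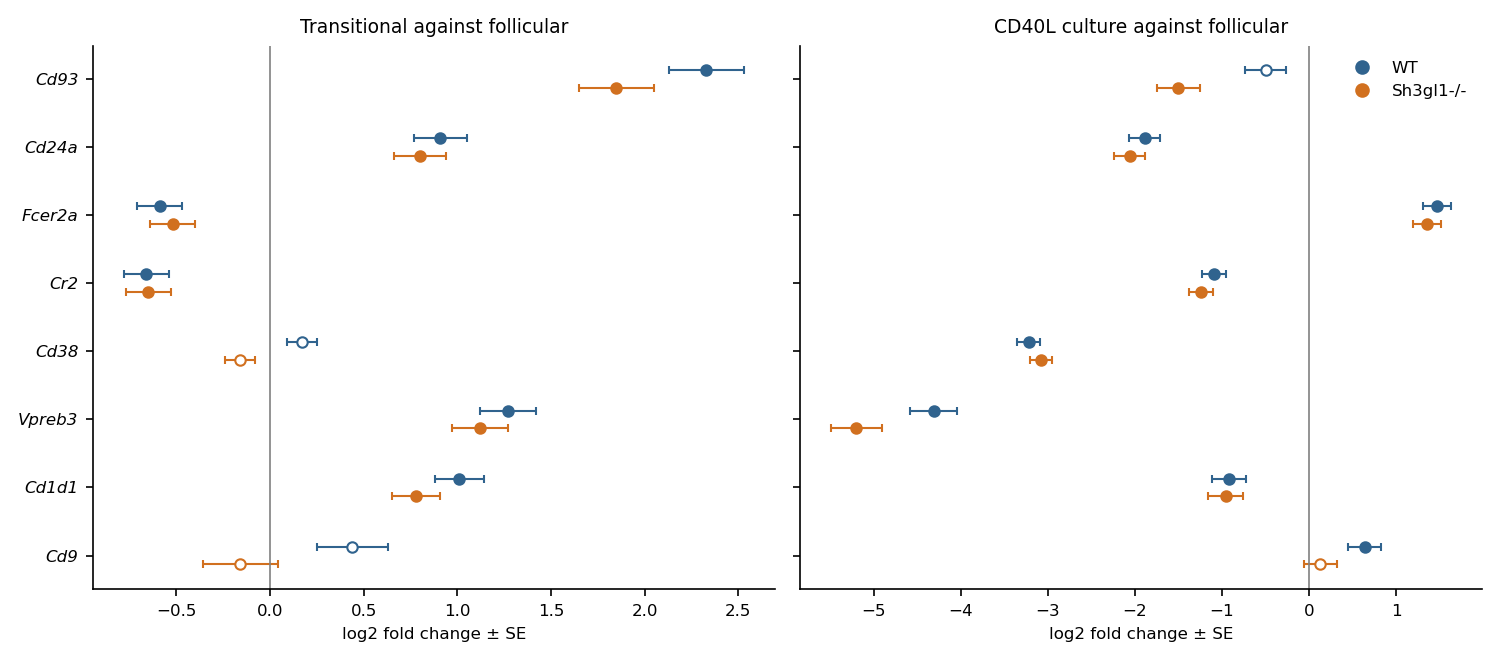
Log2 fold changes with standard errors (horizontal bars) of 8 genes, in transitional against follicular cells (left) and CD40L-cultured against untreated follicular cells (right), for WT and Sh3gl1-/- mice; filled points passed edgeR's test at an adjusted p under 0.05. *Fcer2a* lies at -0.59 in WT transitional cells and at 1.47 after CD40L, while *Vpreb3* lies at 1.27 and -4.31.

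Culture with CD40L for 14 h was then compared with untreated follicular cells. In WT cells 7 of the 8 genes tested passed, 2 higher and 5 lower, where 49.3% of all 14460 genes tested passed. In Sh3gl1-/- cells 7 of the 8 passed, 1 higher and 6 lower, where 42.4% of all genes passed. The median log2 response of the 8 genes was -1.0 in WT and -1.37 in Sh3gl1-/- cells, against -0.08 and -0.03 over all genes tested. Both comparisons contain the same follicular libraries as the transitional comparison, so their values are set side by side and not correlated. The cultured libraries were also lower in T-cell and red cell genes, and a culture without CD40L was not analysed here, so culture and CD40L cannot be told apart.

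*Vpreb3* fell most. It had 11.9, 12.9 and 8.75 CPM after culture in WT cells and 3.39, 7.75 and 2.94 CPM in Sh3gl1-/- cells, all far below the lowest follicular library at 163.4 CPM. This was 19.8-fold lower in WT (log2 -4.31, SE 0.27, adjusted p = 3.9e-08 by edgeR) and 36.8-fold lower in Sh3gl1-/- cells (log2 -5.20, SE 0.29, adjusted p = 1.6e-08 by edgeR). Its response was the largest of the 8 genes in both genotypes. *Cd38* was at 82.2, 98.6 and 69.5 CPM in WT and 96.9, 100.5 and 84.1 CPM in Sh3gl1-/- cells after culture. It fell 9.3-fold in WT (adjusted p = 6.5e-10 by edgeR) and 8.44-fold in Sh3gl1-/- cells (adjusted p = 1.1e-09), with groups far apart.

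*Cd24a* was at 63.4, 60.2 and 36.2 CPM after culture in WT and at 27.2, 31.9 and 24.9 CPM in Sh3gl1-/- cells. It was 3.7-fold lower than in follicular WT cells (adjusted p = 1.5e-06 by edgeR) and 4.16-fold lower in Sh3gl1-/- cells (adjusted p = 1e-06). *Cr2* was at 340.4, 378.3 and 485.6 CPM after culture in WT cells, 2.13-fold lower (adjusted p = 2.5e-05), and 2.36-fold lower in Sh3gl1-/- cells (adjusted p = 1.1e-05 by edgeR). *Cd1d1* was at 52.2, 62.2 and 69.6 CPM in WT cells, 1.89-fold lower (adjusted p = 0.0016), and 1.95-fold lower in Sh3gl1-/- cells (adjusted p = 0.0015 by edgeR). Each of these 3 genes lay below every follicular library of its own genotype.

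*Fcer2a* went the other way, and every cultured library lay above every follicular one. It had 3400.3, 4292.3 and 5134.8 CPM after culture in WT cells and 3635.5, 2663.3 and 4074.4 CPM in Sh3gl1-/- cells. It rose 2.78-fold in WT (log2 1.47, SE 0.16, adjusted p = 6.6e-06 by edgeR) and 2.55-fold in Sh3gl1-/- cells (log2 1.35, SE 0.16, adjusted p = 1.9e-05 by edgeR). *Cd9* had 43.7, 33.0 and 31.1 CPM after culture in WT cells, a log2 change of 0.64 (SE 0.19, adjusted p = 0.012 by edgeR), which did not pass without CD40L WT library 1 (0.47, adjusted p = 0.057). For Sh3gl1-/- cells its change was 0.13 (SE 0.19, adjusted p = 0.62).

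*Cd93* had 10.5, 9.69 and 7.77 CPM after culture in WT cells and 8.96, 8.39 and 5.38 CPM in Sh3gl1-/- cells. Relative to follicular cells it changed by -0.50 on the log2 scale in WT (SE 0.24, adjusted p = 0.11 by edgeR), and by -1.50 in Sh3gl1-/- cells (SE 0.25, adjusted p = 0.00026). With same-numbered WT libraries paired, the WT response was -0.50 and passed (adjusted p = 0.046). The starting level in follicular cells was higher in Sh3gl1-/- (21.1 ± 6.05 CPM, SD, n = 3) than in WT cells (12.9 ± 1.35 CPM, SD, n = 3), and the macrophage sums of the same follicular libraries were 294.6, 131.5 and 245.1 against 118.8, 129.3 and 159.6 CPM. The part of the macrophage genes in this was not tested.

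The difference between the genotypes in the CD40L response passed for none of the 8 genes (0 by edgeR and 0 by DESeq2), nor for any gene in edgeR's test (0.0% of 14460 genes). DESeq2 called 29 of all 14460 genes. At an unadjusted p under 0.05 in edgeR's test there were 2 of the 8, where 8.84% of all genes were. These were *Cd93* (-1.0, SE 0.34, adjusted p = 0.47 by edgeR) and *Vpreb3* (-0.90, SE 0.36, adjusted p = 0.52). The other 6 differences lay between -0.51 (*Cd9*) and 0.14 (*Cd38*).

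The last question was how the markers differed between Sh3gl1-/- and WT cells within each state. In transitional cells 2 of the 9 genes tested passed, both lower in Sh3gl1-/- cells, where 3.73% of all 13774 genes tested passed and 2.48% were lower. In follicular cells 1 of 8 passed, also lower, where 0.845% of all 13610 genes passed and 0.36% were lower. After CD40L culture 0 of 8 passed in edgeR's test, where 0.0227% of all 13188 genes passed. DESeq2 called 1 of the 8, where it called 79 of all 13188 genes. In edgeR's test 5 of the 8 had an unadjusted p under 0.05, where 7.07% of all genes had. The median log2 difference of the genes tested was -0.53, -0.26 and -0.46 in the 3 states, against 0.02, -0.00 and 0.01 over all genes.

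*Cd24a* was lower in Sh3gl1-/- cells in each state without overlap. In transitional cells it had 190.1, 245.6 and 162.8 CPM against 309.4, 397.5 and 389.2 CPM in WT, 1.83-fold lower (log2 -0.87, SE 0.15, adjusted p = 0.026 by edgeR). In follicular cells it had 112.8, 111.1 and 121.7 CPM against 198.4, 207.0 and 173.3 CPM in WT, 1.68-fold lower (log2 -0.75, SE 0.09, adjusted p = 0.004 by edgeR). After culture the levels were 27.2, 31.9 and 24.9 CPM against 63.4, 60.2 and 36.2 CPM in WT, a log2 difference of -0.90 that did not pass (SE 0.22, adjusted p = 0.38 by edgeR). It passed there with DESeq2 (-0.92, adjusted p = 0.022), which called 79 of 13188 genes. The transitional difference did not pass without WT library 2 (-0.81, adjusted p = 0.085) or 3 (-0.83, 0.052), or without Sh3gl1-/- library 1 (-0.83, 0.10) or 3 (-0.74, 0.11). The follicular difference passed with any 1 library left out (adjusted p from 0.0035 to 0.046), but not with all 18 libraries in 1 fit (-0.74, adjusted p = 0.10). The pseudogene *Gm6212* shares 69 of the 2510 windows of 50 bases in *Cd24a* transcripts (2.75%).

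*Cd1d1* was at 138.9, 158.6 and 130.5 CPM in transitional Sh3gl1-/- cells against 245.8, 216.4 and 226.8 CPM in WT, 1.61-fold lower (log2 -0.69, SE 0.10, adjusted p = 0.013 by edgeR). It did not pass without Sh3gl1-/- library 1 (-0.66, adjusted p = 0.079) or 3 (-0.62, adjusted p = 0.078), nor with same-numbered libraries as a block (-0.69, adjusted p = 0.053) or all 18 libraries in 1 fit (-0.69, adjusted p = 0.065). The block joins libraries of both genotypes by number, although the genotypes were not paired by number. Sh3gl1-/- libraries 1 and 3 are the 2 with the highest plasma cell and red cell sums. With both left out, the differences were -0.57 for *Cd24a* and -0.53 for *Cd1d1*. Only 1 Sh3gl1-/- library is then left and its spread is taken from WT, so calls in that fit decide nothing. The summed pan-B-cell genes were also lowest in these 2 transitional libraries. The part of the plasma cell, red cell and pan-B-cell genes in these differences was not tested. In follicular cells *Cd1d1* had 76.1, 87.9 and 86.6 CPM against 91.1, 113.1 and 136.8 CPM in WT (log2 -0.45, SE 0.14, adjusted p = 0.21), and after culture the groups overlapped (log2 -0.47, SE 0.21, adjusted p = 0.70). The follicular difference was called by DESeq2 (adjusted p = 0.044), and by edgeR when all genes with at least 1 count were tested (adjusted p = 0.0046). These settings called 352 of 13610 and 602 of 24156 genes.

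*Cr2* and *Vpreb3* had lower values in Sh3gl1-/- libraries than in any WT library of the same state, in all 3 states, but did not pass edgeR's test fitted on the 6 libraries of a state with no block. Other fits did call them. In transitional cells DESeq2 called *Cr2* (adjusted p = 0.029) and *Vpreb3* (0.011), and *Vpreb3* passed edgeR's test without Sh3gl1-/- library 2 (-0.76, adjusted p = 0.015). DESeq2 called 1340 of 13774 genes there, against 514 by edgeR. In follicular cells *Cr2* passed with same-numbered libraries as a block (adjusted p = 0.016 by edgeR). That block joins WT and Sh3gl1-/- libraries by number, although the genotypes were not paired by number. DESeq2 called *Vpreb3* in follicular cells (adjusted p = 0.029), where it called 352 of 13610 genes. After culture *Vpreb3* passed with all 18 libraries in 1 fit (-1.27, adjusted p = 0.038 by edgeR). Both genes also passed in transitional and follicular cells when all genes with at least 1 count were tested, as did *Vpreb3* after culture. That setting called 1426 of 24719 genes in transitional, 602 of 24156 in follicular and 216 of 23365 in cultured cells. Of the 8 genes tested in all 3 states, *Cr2*, *Vpreb3* and *Cd24a* (3 genes) were lower without overlap in each. Over all genes, 0.653% of 12397 had this pattern. The states may come from the same mice, so they are not independent observations. *Cr2* had 370.9, 380.3 and 495.3 CPM in transitional, 596.8, 619.4 and 758.6 CPM in follicular and 269.8, 270.6 and 307.4 CPM in cultured Sh3gl1-/- cells. Its log2 differences from WT were -0.36 (SE 0.11, adjusted p = 0.11 by edgeR), -0.35 (SE 0.11, adjusted p = 0.21) and -0.48 (SE 0.15, adjusted p = 0.54). *Vpreb3* differed by -0.53 (SE 0.16, adjusted p = 0.10), -0.37 (SE 0.10, adjusted p = 0.18) and -1.23 (SE 0.38, adjusted p = 0.54 by edgeR). The transitional values of *Vpreb3* in Sh3gl1-/- libraries spread from 284.0 to 469.7 CPM, and the cultured values rest on 48, 97 and 47 counts.

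The remaining genes showed no common direction. *Cd93* was at overlapping levels in transitional cells (log2 0.22, SE 0.15, adjusted p = 0.44 by edgeR). In follicular cells all 3 Sh3gl1-/- libraries lay above WT (log2 0.71, SE 0.21, adjusted p = 0.20), and after culture the groups overlapped (log2 -0.27, SE 0.26, adjusted p = 0.81). *Fcer2a* overlapped between genotypes in every state, with log2 differences of -0.12, -0.18 and -0.28. *Cd38* was lower without overlap in transitional cells (log2 -0.31, SE 0.10, adjusted p = 0.10), at 0.04 in follicular cells and at 0.20 after culture. *Cd9* was at -0.57 in transitional cells (SE 0.17, adjusted p = 0.096), 0.04 in follicular cells and -0.45 after culture (SE 0.17, adjusted p = 0.67). In transitional cells DESeq2 called *Cd38* (adjusted p = 0.031) and *Cd9* (0.03). Both passed edgeR's test there when all genes with at least 1 count were tested (adjusted p = 0.027 and 0.013). These 2 settings called 1340 of 13774 and 1426 of 24719 genes in transitional cells. With all genes of at least 1 count tested, *Cd93* passed in follicular cells, higher in Sh3gl1-/- (adjusted p = 0.0055 by edgeR), among 602 of 24156 genes. *Rag1* had a log2 difference of -0.82 in transitional cells with a wide error (SE 0.80, adjusted p = 0.59), and *Rag2* gave p = 0.2 in the two-sided exact permutation test.

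**Figure D4:**
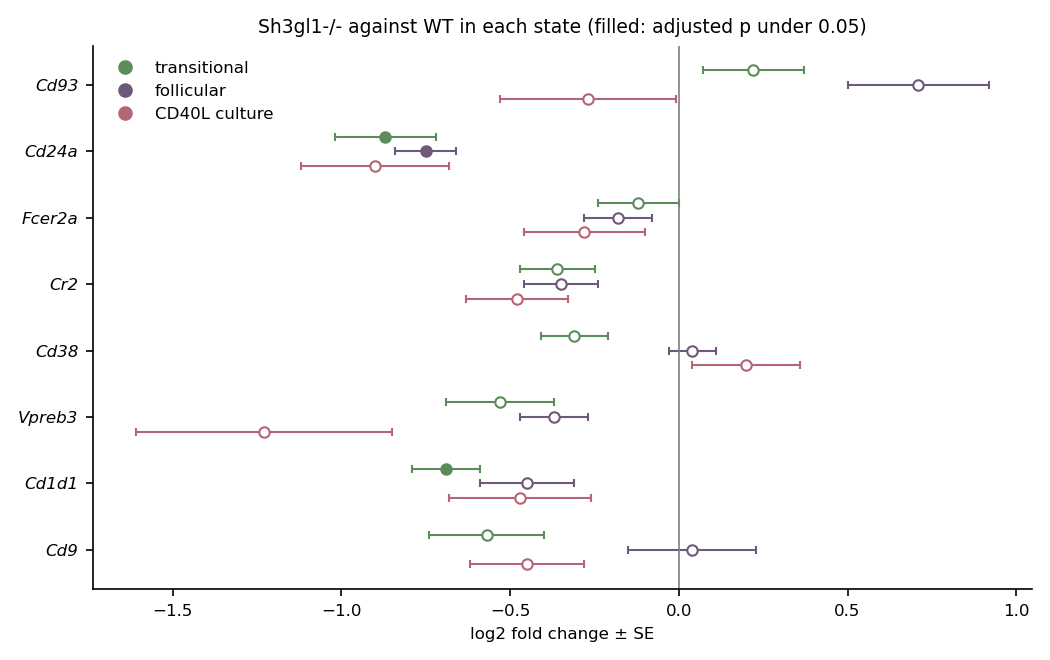
Log2 fold changes of Sh3gl1-/- against WT cells with standard errors (horizontal bars) for 8 genes in transitional, follicular and CD40L-cultured cells; filled points passed edgeR's test at an adjusted p under 0.05. *Cd24a* lies at -0.87, -0.75 and -0.90, and *Cr2*, *Vpreb3*, *Cd1d1* and *Fcer2a* also lie below 0 in the 3 states.

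Genes whose levels followed *Cd93* and *Fcer2a* most closely were found by Pearson's r of log2 CPM over the 18 libraries, among 8304 genes with a mean of at least 10 CPM. The libraries form 6 groups, so r mostly reflects differences between groups and is given as a description. For *Cd93* the 5 closest were *Akap12*, an A-kinase anchoring protein (r = 0.97), the immunoglobulin segment *Ighv6-6* (0.969), *Mrc1*, the macrophage mannose receptor (0.967), *Aldh3b1* (0.965) and *Serinc5* (0.963). *Mrc1* had a mean of 49.2 CPM in transitional and 1.21 CPM in follicular WT cells, and *Akap12* 79.4 and 17.7 CPM. For *Fcer2a* the closest were *Oat*, an ornithine aminotransferase (r = 0.986), *Nop14* (0.984), *Mettl1* (0.98), the adaptor *Grap* (0.979) and *Traf1*, a TNF receptor-associated factor (0.977). *Traf1* went from 36.8 CPM in follicular to 556.6 CPM in cultured WT cells, and *Oat* from 171.2 to 336.0 CPM.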

How the data were processed

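Libraries were prepared from polyA RNA of 18 sorted samples, 3 mice per group, with groups and replicate numbers taken from the sample labels. Per the labels the libraries were stranded KAPA mRNA libraries, and the submitters' processing notes name cutadapt 1.9.1, STAR 2.5.2a, RSEM 1.3.0 and GRCm38. The methods name SMART-Seq HT, Nextera XT, TopHat and Cufflinks instead. The paper gives other culture times (overnight, or a full day) than the 14 h of the labels, which were followed. The strand setting of counting is not stated. The authors deposited expected counts per gene, which RSEM estimates by dividing multiply mapped reads. They were rounded here, since 10.3% to 11.6% per library were not whole. The deposited TPM values served to compare genes, and the deposited FPKM values were not used further.

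Counts were tested in edgeR 4.0.16 (limma 3.58.1, R 4.3.3) by glmQLFit and glmQLFTest after filterByExpr by group and TMM scaling, with Benjamini-Hochberg adjustment over all genes tested and a threshold of 0.05. State comparisons and interactions were fitted on 12 libraries, genotype comparisons on the 6 of each state. No block for mouse or replicate number entered these fits, so libraries that may share a mouse were treated as independent. The biological coefficient of variation was 18.3% to 23.1%. CPM uses TMM-scaled totals. For genes below the filter an exact permutation test (two-sided) of CPM was used. DESeq2 1.42.0 was an alternative. Scripts were tested on simulated counts. Positions came from GENCODE M21, which lists 51719 of the 51912 identifiers.

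Deviations of same-numbered libraries from their group means correlated at 0.15 to 0.35 between transitional and follicular WT cells, at 0.17 to 0.36 in Sh3gl1-/- cells and at 0.21 to 0.31 between follicular and cultured WT cells, so these numbers paired the libraries. Cultured and follicular Sh3gl1-/- libraries correlated more weakly, at 0.04 to 0.19, against a mean of -0.06 for libraries with other numbers. The own number was still the best match in 6 of 6 cases there. The genotypes (-0.13 to 0.14) were not paired by number.

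The genes, marker lists and tests were chosen with earlier results of these data known, and 1 gene each of the pan-B-cell and red cell lists is not reported here. The text names the 10 genes in every group, *Sh3gl1*, paralogs and overlapping genes, from each stage list the 4 with the smallest adjusted p between transitional and follicular WT cells, the 5 genes closest to *Cd93* and to *Fcer2a*, and genes of other cell lists that passed in a genotype comparison.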

Additional observations from a re-analysis of the deposited data

How the results depend on the processing

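The 6 calls of transitional against follicular cells held in WT cells with any 1 library left out. In Sh3gl1-/- cells 5 to 6 held, and the call of *Fcer2a* was lost without transitional or follicular Sh3gl1-/- library 2. Leaving out 1 library moved the genes called over the whole table to 2444 to 3773 for WT (lowest without follicular WT library 1) and 986 to 1647 for Sh3gl1-/- cells (992 without transitional and 986 without follicular Sh3gl1-/- libraries 2 and 3, in that order). Over all alternatives of the genes' log2 fold changes, 1212 kept direction and call, 27 gained a call, 15 lost one and 29 changed sign. Analyses with transitional Sh3gl1-/- libraries 1 and 3 left out together, or with a replicate block within genotype, were added after the data were seen.

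With those 2 libraries left out, 838 genes differed between transitional and follicular Sh3gl1-/- cells. The genotype interaction of that comparison then called 0 genes over the table. It called 462 when all genes with at least 1 count were tested, 364 with DESeq2, 20 with the replicate block, 99 with the block within genotype, 0 with all 18 libraries in 1 fit, and 0 to 23 with 1 library left out. The interactions that changed sign were all small. Without the 2 libraries they were 0.19 for *Cd24a*, -0.19 for *Fcer2a*, 0.22 for *Vpreb3* and -0.12 for *Cr2*. *Cr2* was at -0.01 with RLE size factors, DESeq2, the block or all 18 libraries, and at -0.00 with the block within genotype. With 1 library left out they ranged from -0.29 to 0.02 for *Cd24a*, from -0.01 to 0.19 for *Fcer2a* and from -0.14 to 0.12 for *Cr2*.

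For the genotype difference in the CD40L response, testing all genes with at least 1 count called 1 of these genes (*Vpreb3*) and 210 over the table, DESeq2 called 29 over the table, and leaving out 1 library 0 to 1. These differences ranged from -0.33 to 0.11 for *Cd1d1*, from -0.24 to 0.01 for *Cr2* and from -0.25 to 0.05 for *Fcer2a* with 1 library left out.

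Counts of calls between genotypes moved too. In transitional cells the genes described here went from 2 to 6 with all genes of at least 1 count, 6 with DESeq2, 1 with the replicate block, 1 with all 18 libraries and 0 to 3 with 1 left out. Of all genes tested, in the same order, 514 became 1426, 1340, 90, 144 and 28 to 479. In follicular cells 1 became 5 and 3, then 2 (block) and 0 (all 18 libraries), and of all genes 115 became 602, 352, 212, 49 and 32 to 112. After culture 0 became 2, 1 and 2 (all 18 libraries), and of all genes 3 became 216, 79, 21 (block), 82 and 1 to 9. The cause of these shifts was not tested. The replicate block also called *Cd9* between transitional and follicular WT cells (0.46, adjusted p = 0.034 by edgeR). It likewise called *Cd93* between cultured and follicular WT cells (-0.51, adjusted p = 0.047 by edgeR). This block changed no other call than those given here and beside the results. It joins libraries of both genotypes, which were not paired by number.

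*Cd9* changed sign with 1 library left out between genotypes in follicular cells (-0.16 to 0.19) and between transitional and follicular Sh3gl1-/- cells (-0.33 to 0.04). Deposited TPM gave -0.05 for *Cd38* and -0.03 for *Cd9* between genotypes in follicular cells. Depth limits *Rag1* and *Rag2*, which rest on 3 to 51 counts where detected.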

Other observations

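Genes of other cell lists also differed between genotypes. In transitional Sh3gl1-/- cells *Cd36*, a scavenger receptor of marginal zone cells, was lower (log2 -1.97, adjusted p = 0.0024 by edgeR), as it was in follicular cells (-1.19, adjusted p = 0.025). *Gpr183* was lower in both states (-0.92 and -0.54), and *Ighd*, the IgD heavy chain, was higher in both (0.56 and 0.34). *Tnfrsf13c* (-0.71), *Il2ra* (-1.20), *Cxcr5* (-0.44), *Mzb1* (-0.44), the pan-B-cell genes *Ptprc*, the CD45 phosphatase (-0.37), and *Ly6d* (-0.44), and the proliferation gene *Mki67* (-1.35) were lower in transitional cells, while *Rgs13* (0.92), the plasma cell gene *Jchain* (2.35) and the neutrophil genes *Lcn2* (2.98) and *Camp* (2.39) were higher there, as were the 5 red cell genes *Hba-a1*, *Hba-a2*, *Hbb-bs*, *Hbb-bt* and *Alas2* (1.12 to 1.36). In follicular cells 2 of the 9 T-cell genes, *Cd3e* (1.37) and *Cd3d* (0.87), were higher and 0 lower, where 0.845% of all genes passed. The summed T-cell genes had means of 546.3 CPM in follicular Sh3gl1-/- and 564.9 CPM in follicular WT cells. Whether the genotype effects on the genes named here differed between transitional and follicular cells was tested for each gene as an interaction, and none passed.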
